A study of Mus musculus with 24 samples.

Results

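The genes described here are those that build the MHC class I peptide display: the heavy chains H2-K1 and H2-D1, the light chain B2m, the peptide transporter subunits Tap1 and Tap2, the loading factor Tapbp, the immunoproteasome subunits Psmb8, Psmb9 and Psmb10, and the transcriptional activator Nlrc5. They were chosen by symbol for what their products do, and all 10 were found among the 53465 genes of the deposited table. All 10 also passed the filter on low counts in each of the 13 comparisons made.

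Total RNA was measured in 24 mouse bladder tumors of 8 BURP lines, 3 tumors a line. Each line began as 1 bladder tumor of a C57BL/6NTac mouse that drank 0.1% BBN, a nitrosamine carcinogen of the urothelium, from 8 weeks of age for up to 36 weeks, and was then passaged under the skin of hosts of the same strain and sex. Of the Ba/Sq (basal/squamous) lines, those of males were BURP-18BaSq, BURP-17BaSq and BURP-12BaSq, and those of females BURP-25BaSq, BURP-24BaSq and BURP-21BaSq. BURP-16SR (stroma-rich) and BURP-19NE (neuroendocrine-like) came from males. The labels name tumors by a code that they do not explain (C148-M3) or by what reads as a passage (P4). They give neither a sequencing batch nor the age of the hosts. Tumors of a line share their donor, yet the tests, except those on counts summed per line, count each tumor as a unit. Where lines were pooled into 1 group, the spread behind a p-value mixes that between donors with that between passaged tumors. In the other tests it is the spread between passaged tumors and not between mice with independent cancers. Each line also stands for 1 donor tumor of its kind, and a difference of a line from others cannot be told apart from a difference of that donor.

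Class I molecules carry peptides of the cell's own proteins to the surface, where CD8 T cells read them. The proteasome cuts the proteins, and interferon gamma exchanges its 3 catalytic subunits for Psmb8, Psmb9 and Psmb10. The transporter of Tap1 and Tap2 brings the peptides into the endoplasmic reticulum, tapasin (Tapbp) holds the transporter to the empty heavy chain, and a heavy chain leaves for the surface only when paired with B2m and a peptide. Nlrc5 acts in the nucleus on a shared set of promoter elements of these genes. Carcinomas, those of the bladder among them, can escape T cells by losing a step of this route.

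The promoters of the heavy chains and of B2m are shown because they hold elements through which interferons, NF-kB and Nlrc5 are known to act, which these 3 genes share in part. Sequences are from RefSeq (build GRCm38.p6), read along the strand of each gene, and run from 10 bases before the first match to at most 10 bases after the last, none past the start site. Capitals mark matches on either strand to the NF-kB motif GGGANTNNC, the interferon response (ISRE) core GAANNGAAA, the CRE core TGACG and the CCAAT box, in this order where all are there.
H2-K1, chr17:34000334-34000467, minus strand: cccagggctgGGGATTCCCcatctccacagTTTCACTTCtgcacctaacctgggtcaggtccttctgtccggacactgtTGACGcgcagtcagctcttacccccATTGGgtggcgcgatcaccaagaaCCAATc
H2-D1, chr17:35262914-35263055, plus strand: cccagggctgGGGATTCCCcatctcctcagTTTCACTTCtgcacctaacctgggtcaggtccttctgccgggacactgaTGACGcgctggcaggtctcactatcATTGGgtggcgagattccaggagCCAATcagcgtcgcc
B2m, chr2:122147552-122147648, plus strand: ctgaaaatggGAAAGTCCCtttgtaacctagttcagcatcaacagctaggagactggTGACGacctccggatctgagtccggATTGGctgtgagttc

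In H2-K1 and H2-D1 the ISRE core began 20 bases after the NF-kB match and the CRE core 69 bases after it. All 3 genes had the CRE core 25 bases before the next CCAAT box, and no ISRE core lay in the B2m window. Of 32851 RefSeq promoters of the same length, 7.52% held an ISRE core, 14% the NF-kB motif, 20.8% the CRE core and 37.4% a CCAAT box. The last motif searched, the GAS element TTCNNNGAA, was in 8.3% of them and, among the 8 members searched, in Psmb8 alone. Tap1 and Psmb9 start from 1 shared stretch of chromosome 17 on opposite strands, with a CCAAT box and a CRE core in both windows, and the window of Psmb10 matched none of the 5 motifs. Promoters of 8 members were matched by symbol, with 2 entries for H2-K1, of which the second is shown. Tap2 and Nlrc5 had no entry and were not searched. A match of letters is a description and not evidence of binding.

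Of the 10 genes, 7 lie on chromosome 17 in GENCODE (GRCm38): Tapbp (33915899 to 33929292), H2-K1 (33996017 to 34000347), Psmb9 (34181987 to 34187764), Tap1 (34187553 to 34197225), Psmb8 (34197721 to 34201454), Tap2 (34203527 to 34216321) and H2-D1 (35262730 to 35267499). B2m lies on chromosome 2 (122147686 to 122153083), and Nlrc5 (94434356 to 94527272) and Psmb10 (105935735 to 105938444) on chromosome 8. Tap1 and Psmb9 overlap on opposite strands, and since the strand setting of the counting is not given in the sources used here, reads of the overlap cannot be told apart. Heavy chain genes resemble each other: 8.11% of the 50-base stretches of the longest H2-K1 transcript and 14.3% of those of H2-D1 recur in transcripts of other genes, so that their counts are partly uncertain. B2m, Psmb8, Psmb9, Psmb10 and Nlrc5 share no such stretch with another gene.

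Total counts ran from 9295747 to 25370356 per tumor. Levels are CPM, counts scaled by library size with TMM normalization, which sets libraries so that most genes keep their level. A floor of 3 counts stood for 0.106 to 1.34 CPM, depending on the library. Counts of the members ran from 15 (Psmb9 in BURP-16SR P5) upward, so none was at that floor. Of the libraries, 3 stood apart. Tumor C102-M30 of BURP-25BaSq took 68.0% of its counts from ribosomal RNA genes, against 5.82% to 18.98% elsewhere. Tumor C102-M1, labelled BURP-25BaSq, resembled BURP-21BaSq (mean r = 0.639 over 21383 genes) and not its own line (0.0118), and is written below as labelled. Tumor C165-M30 of BURP-17BaSq was about as near to BURP-24BaSq (0.303) as to its own line (0.277). Epithelial markers (7 genes) summed to 6528 to 12599 CPM in the Ba/Sq tumors, 212 to 489 in BURP-16SR and 142 to 214 in BURP-19NE.

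Per kilobase of the longest transcript, the light chain was the most abundant member. Over 24 tumors B2m had 707 ± 395 CPM per kb (SD, n = 24), H2-K1 298 ± 170 and H2-D1 285 ± 128. Tapbp followed with 63.5 ± 31.0, and the other members had means from 11.97 (Psmb9) to 35.5 (Psmb8) CPM per kb. Of the 10 members, 8 differed among the 8 lines at a Benjamini-Hochberg adjusted p under 0.05 (edgeR's quasi-likelihood F test), Psmb10 and Nlrc5 being the others, where 76.7% of all genes tested did. Among the 6 Ba/Sq lines 6 members differed (H2-K1, H2-D1, B2m, Tap1, Psmb8 and Psmb9), against 50.5% of all genes. Both shares of members are near those backgrounds.

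**Figure D1:**
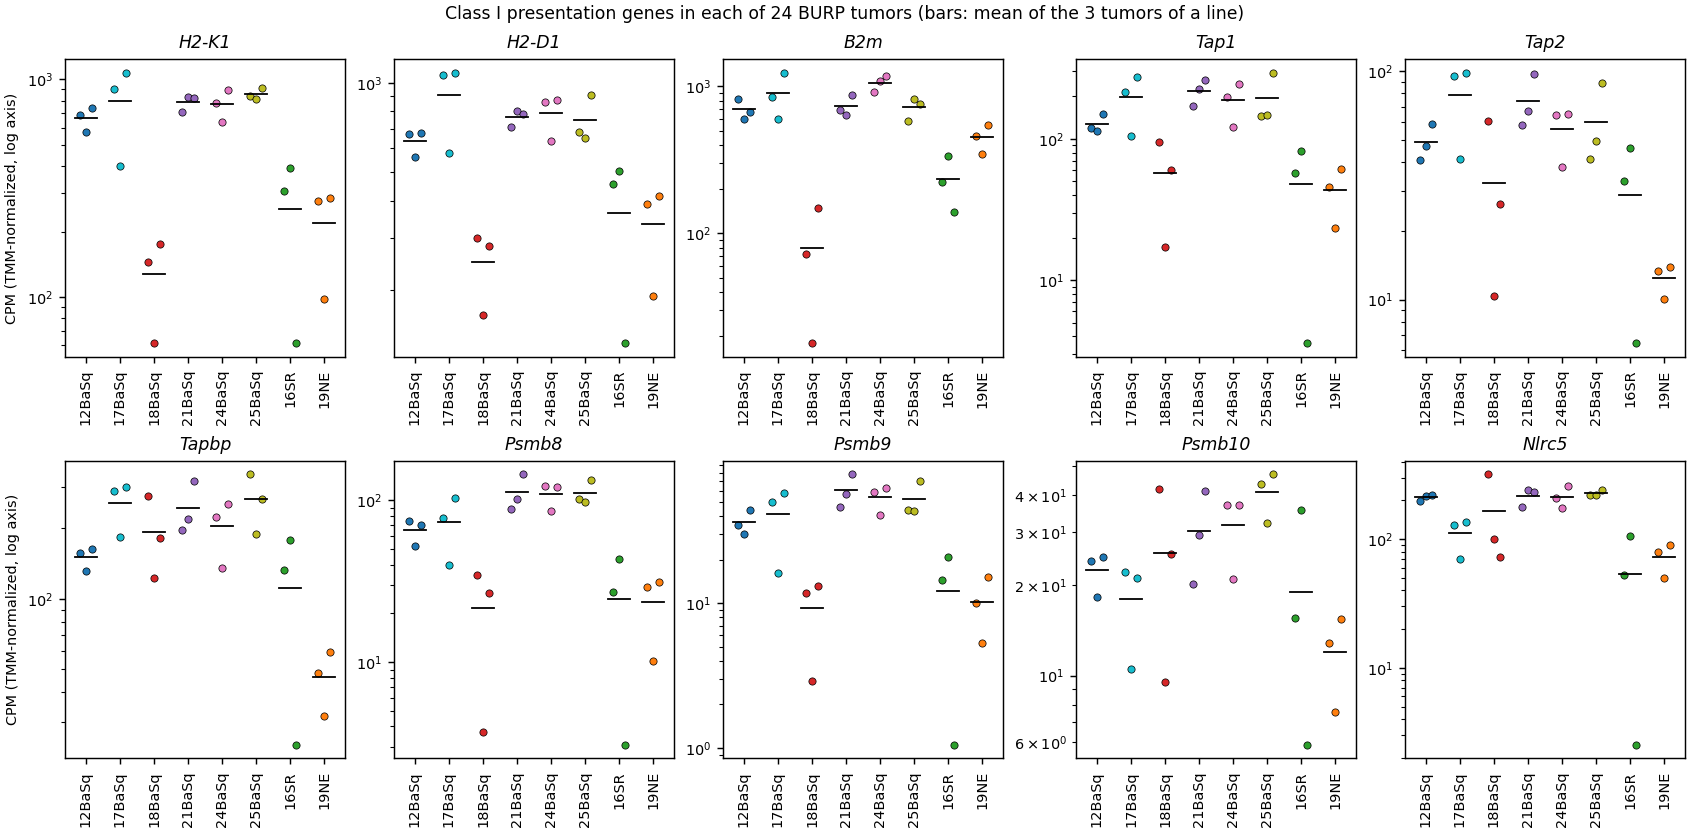
Level of each of the 10 genes in each tumor (vertical, CPM on a log axis) by line (horizontal), 1 point per tumor, with bars at the mean of the 3 tumors. BURP-18BaSq, in red, is far below the other Ba/Sq lines in H2-K1, H2-D1 and B2m and among them in Tapbp and Nlrc5, and 1 BURP-16SR tumor (P5) is the lowest of all 24 for 8 of the genes.

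BURP-18BaSq, a Ba/Sq line from a male, had little B2m and heavy chain RNA next to the other Ba/Sq lines. Its 6 members H2-K1, H2-D1, B2m, Tap1, Psmb8 and Psmb9 were lower at adjusted p under 0.05, while Tap2, Tapbp, Psmb10 and Nlrc5 did not pass. In the same 6 all 3 tumors were below all 15 others. The backgrounds are 7.27% of genes tested called lower and 3.8% with all 3 tumors below all others, and the median log2 fold change was -1.66 over the 10 members and -0.09 over all genes. In bulk tumors, fewer cells that express a gene and less RNA per cell cannot be told apart, here and below.

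B2m, the light chain without which heavy chains stay inside the cell, changed most. It had 72.8 CPM in C148-M3, 17.9 in C149-M3 and 148.2 in P4 of BURP-18BaSq. The other 15 Ba/Sq tumors ran from 584 to 1238 with a median of 814, so that no tumor of the line came near them. The log2 fold change was -3.35 ± 0.47 (SE, adjusted p = 1.04e-04, edgeR). BURP-18BaSq also lay below BURP-19NE (349 to 546 CPM) in every tumor.

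For H2-K1, a heavy chain that presents peptides to CD8 T cells, the BURP-18BaSq tumors had 144, 61.3 and 176 CPM in the same order. The other Ba/Sq tumors had 401 to 1075 with a median of 816. The groups did not overlap, and the log2 fold change was -2.60 ± 0.31 (adjusted p = 2.03e-05, edgeR). H2-D1, the other classical heavy chain of this strain, had 299, 164 and 281 CPM against 561 to 1082 with a median of 709. It too was lower without overlap, by a log2 fold change of -1.62 ± 0.24 (adjusted p = 1.76e-04, edgeR).

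The difference from the other Ba/Sq lines was not even across the chains of 1 molecule. Within a tumor, where library size cancels, the log2 ratio of B2m to H2-D1 was -2.03, -3.16 and -0.92 in C148-M3, C149-M3 and P4, and -0.33 to 0.77 in the other 15 Ba/Sq tumors. H2-K1 over H2-D1 was -1.05, -1.41 and -0.68, against -0.53 to 0.32. Both sets of ratios were thus below all others of the subtype; they are descriptions, with no test. Per kilobase, B2m fell below H2-D1 in C148-M3 (84.6 against 142 CPM per kb) and C149-M3 (20.8 against 78.0), but not in P4 (172 against 134).

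Of the peptide supply genes, Tap1 had 94.5, 17.2 and 60.3 CPM against 104 to 294 in the other Ba/Sq tumors, with a log2 fold change of -1.69 ± 0.42 (adjusted p = 0.0115, edgeR). Its partner Tap2 had 60.7, 10.4 and 26.2 CPM, overlapping the 37.9 to 98.5 of the others (log2 fold change -0.96 ± 0.41, adjusted p = 0.114). C149-M3 was the lowest of the 3 tumors for both subunits. Immunoproteasome subunit Psmb8 had 34.7, 3.69 and 26.7 CPM against 39.9 to 145, and Psmb9 had 11.8, 2.92 and 13.3 against 16.3 to 78.0. Their log2 fold changes were -2.11 ± 0.49 (adjusted p = 0.00640) and -2.38 ± 0.44 (adjusted p = 0.00144, edgeR), and neither gene overlapped between the groups.

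The other members overlapped the rest of the subtype, each with 1 BURP-18BaSq tumor outside its range. Tapbp, the bridge between transporter and heavy chain, had 276, 123 and 182 CPM against 131 to 340 (log2 fold change -0.20 ± 0.29, adjusted p = 0.669). Nlrc5, the activator of class I promoters, had 320.1, 101 and 72.1 CPM against 69.7 to 259, so that C148-M3, with little B2m, had the most Nlrc5 of the 24 tumors (log2 fold change -0.25 ± 0.36, adjusted p = 0.680). Psmb10, the third induced subunit, had 41.9, 9.52 and 25.39 CPM against 10.5 to 46.8 (log2 fold change -0.15 ± 0.39, adjusted p = 0.827). For these 3 genes the sign turned when 1 BURP-18BaSq tumor was left out, so that no direction can be given.

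**Figure D2:**
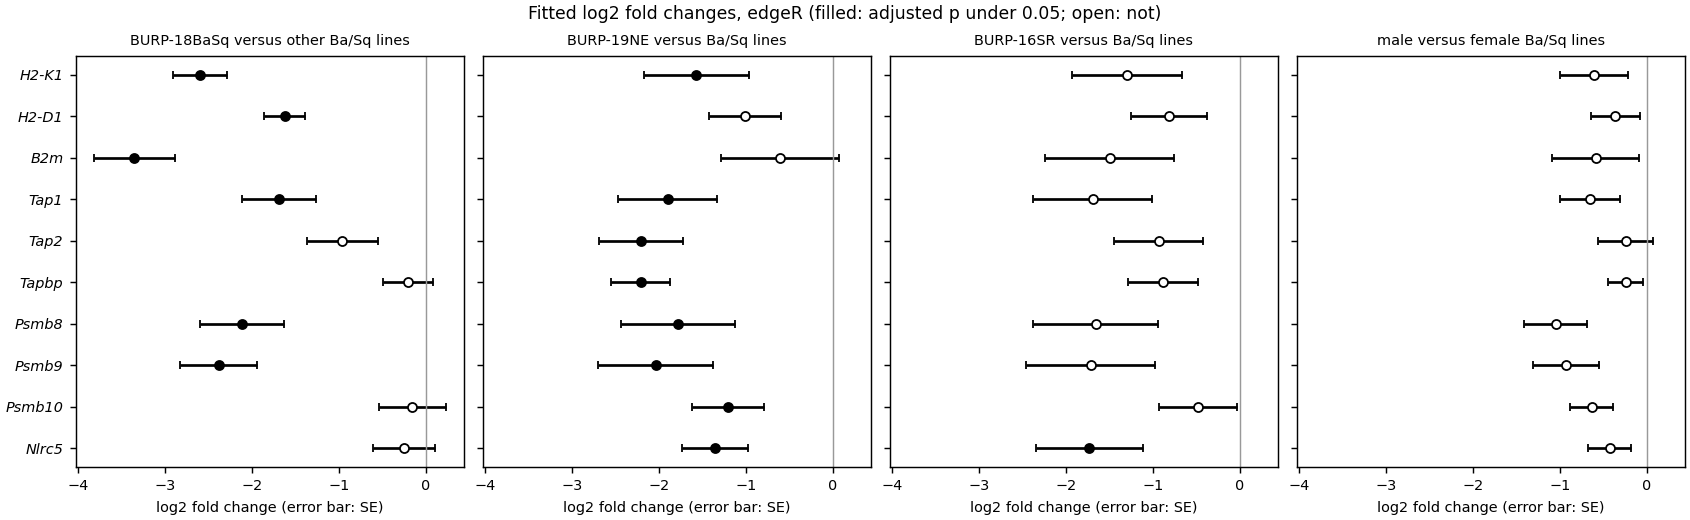
Fitted log2 fold change of each gene (horizontal, error bars SE) in 4 comparisons, filled where the adjusted p was under 0.05. In BURP-18BaSq the 6 filled points include B2m at -3.35, in BURP-19NE 8 points are filled with Tapbp at -2.21, in BURP-16SR Nlrc5 alone is filled, and between the sexes none is.

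The calls in BURP-18BaSq did not rest on C102-M1 and C102-M30: without both, 6 members were called. C165-M30, the other library that stood apart, was left out only singly. Leaving out any 1 of the 18 tumors gave 5 to 7, with B2m between -4.18 and -2.89. Tap1 was lost without C149-M3, the tumor with the lowest levels (adjusted p = 0.0582). With counts summed to 1 value a line, which leaves 1 line against 5, none of the 6 passed (adjusted p from 0.0626 for H2-K1 to 0.165 for Tap1, edgeR) though their log2 fold changes stayed between -3.17 and -1.70.

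Genes around the pathway were examined from lists. Among 6 loading and trimming genes, 2 were lower in BURP-18BaSq: Erap1 (-1.19 ± 0.32, adjusted p = 0.0182), the aminopeptidase that trims peptides to class I length, and Pdia3 (-0.74 ± 0.20, adjusted p = 0.0193), a disulfide isomerase of the loading complex that lies on chromosome 2 with B2m. Nonclassical class I genes were lower in 8 of 13 tested, led by H2-Q7 (-4.42 ± 0.63), H2-Q6 (-4.05), H2-Q4 (-3.29) and H2-T10 (-3.16), with a list median of -2.75. H2-Q7 had a median of 11.5 CPM in BURP-18BaSq and 376.9 in the other Ba/Sq tumors. These genes share sequence with the heavy chains, so that reads could pass between them in the counting.

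Of 15 regulators, Nfkb1 was higher (0.64 ± 0.18, adjusted p = 0.0239) and Nfyc and Creb1 lower (-0.75 and -0.52), while Irf1, an interferon-induced activator of these promoters, was at -0.43 (adjusted p = 0.368). Ptpn2, a phosphatase of the interferon gamma receptor pathway, was lower (-0.79 ± 0.17, adjusted p = 0.00449). Of 16 interferon gamma targets only Icam1 was called, and it was higher (1.39 ± 0.32). Of 15 type I interferon targets 3 were lower: Rtp4 (-1.97), Ifih1 (-1.59) and Ddx58 (-0.96). Among the proteasome genes outside the members, Psmb7 (-0.83) and Psme2 (-0.68), a subunit of an activator cap, were lower of 6 tested.

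Markers of other cells were measured beside these genes. T cell markers (7 genes) summed to 12.6, 2.2 and 23.1 CPM in C148-M3, C149-M3 and P4, against 1.3 to 31.6 in the other Ba/Sq tumors, and macrophage markers (7 genes) to 159, 23.7 and 419 against 48.0 to 684. C149-M3, lowest in most members, had the lowest macrophage sum of the 24 tumors, and 1 of its T cell markers was at 0. NK cell markers summed to 11.5, 1.1 and 12.8 CPM against 0.5 to 11.7, and 1 of the 3 tested was higher. Of the 10 marker lists, C149-M3 also lay below the other 15 Ba/Sq tumors in pan-leukocyte markers (14.2 CPM against at least 22.6) and above them in epithelial markers (12599 against at most 11784), P4 above them in skeletal muscle markers (30.8 against at most 19.5), and C148-M3 and C149-M3 below them in endothelial markers (23.2 and 19.99 against at least 23.9). C148-M3 and P4 were in the range of the other 15 in T cell and macrophage sums. Outside that range were the endothelial sum of C148-M3, its skeletal muscle sum (0 CPM), and the NK cell and skeletal muscle sums of P4. The part of these cells in the members' levels was not tested.

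BURP-19NE was compared with the 18 Ba/Sq tumors. Of the 10 members 8 were lower, beside 17.9% of all genes tested that were called lower, with a median log2 fold change of -1.68 over the members and -0.14 over all genes. B2m and H2-D1 were not called.

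Tapbp separated the groups most clearly. It had 48.2, 31.7 and 59.6 CPM in C80-M1, C80-M3 and C80-M30, below every Ba/Sq tumor (123 to 340, median 207). The log2 fold change was -2.21 ± 0.34 (adjusted p = 3.53e-05, edgeR). No other member was free of overlap here, with BURP-18BaSq in the Ba/Sq group. The share of all genes free of overlap was not counted for this comparison.

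Both transporter genes were lower. Tap2 had 13.3, 10.01 and 13.9 CPM against 10.4 to 98.5 (median 58.3), a log2 fold change of -2.20 ± 0.48 (adjusted p = 0.00136). Tap1 had 45.3, 23.5 and 60.9 CPM against 17.2 to 294 (median 147.8), with -1.90 ± 0.57 (adjusted p = 0.0133). Outside BURP-18BaSq, no tumor of the Ba/Sq lines was as low as any of BURP-19NE for either gene.

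The immunoproteasome subunits and the transcriptional activator Nlrc5 were lower too. Psmb9 had 10.02, 5.27 and 15.1 CPM against a Ba/Sq median of 43.9 (log2 fold change -2.04 ± 0.66, adjusted p = 0.0215), Psmb8 had 29.3, 10.1 and 31.1 against 87.1 (-1.78 ± 0.65, adjusted p = 0.0393), and Psmb10 had 12.9, 7.54 and 15.4 against 25.1 (-1.21 ± 0.41, adjusted p = 0.0280). Nlrc5 had 80.1, 50.02 and 89.6 CPM against 213 (-1.36 ± 0.38, adjusted p = 0.00893). C80-M3 was the lowest tumor of the line for all 10 genes.

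Of the chains of the molecule itself, H2-K1 had 276, 97.5 and 285 CPM against a Ba/Sq median of 757 (-1.57 ± 0.61, adjusted p = 0.0498), just inside the threshold. H2-D1 had 390.3, 191 and 416 against 678 (-1.01 ± 0.41, adjusted p = 0.0637). B2m had 456, 349 and 546 against 727 (-0.61 ± 0.68, adjusted p = 0.517), a difference inside the spread of a group that holds BURP-18BaSq. Without that line all 10 members were called lower.

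Leaving out C102-M1 and C102-M30 together, or single tumors, moved this count. Without C102-M1 and C102-M30 it was 6. Leaving out C80-M1 gave 3 (Tap2, Tapbp and Nlrc5) and leaving out C80-M3 gave 2 (Tap2 and Tapbp), and with counts summed per line only Tapbp passed (-2.24, adjusted p = 0.0382).

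Related lists went as follows in BURP-19NE. Of the loading genes Tapbpl (-1.28 ± 0.31), a tapasin relative that edits peptides, and Erap1 (-1.23 ± 0.41) were lower, 2 of 6. No constitutive counterpart or proteasome activator was called among 6 tested by edgeR, where 1 had an unadjusted p under 0.05. Nonclassical genes were lower in 7 of 14 and higher in 2, with H2-Q2 (-5.99), H2-M2 (-3.95) and H2-T10 (-2.33) lower and H2-M5 (2.63) higher. Of the regulators Ciita (-1.98), the activator of class II genes, Irf1 (-1.24) and Irf2 (-0.75) were lower and Nfya (0.70), a CCAAT box factor, higher.

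On the interferon side of BURP-19NE, the inhibitor Socs1 (-1.58) and the receptor chain Ifngr2 (-1.23) were lower. Interferon gamma targets were lower in 3 of 16 (Cxcl11, Gbp4 and Icam1) and higher in 1 (Ido1, 2.64 ± 0.71), and type I targets lower in 4 of 15, led by Oas3 (-3.41 ± 0.67). T cell marker sums were 7.5, 3.6 and 10.6 CPM, against a Ba/Sq median of 13.7 and range of 1.3 to 31.6. The NK cell sums were 1.8, 1.1 and 3.1 CPM against 0.5 to 12.8, and 3 of 5 NK markers were at 0 in C80-M3. All 5 skeletal muscle markers were higher in BURP-19NE, with a sum of 520.2 CPM in C80-M1 and 2.8 and 4.8 in the others. Only C80-M1 was above the Ba/Sq range of 0 to 30.8 CPM. The part of these cells in the members' levels was not tested.

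BURP-16SR held 1 tumor, P5, far below its other tumors in most members. Compared with the 18 Ba/Sq tumors only Nlrc5 was called, and it was lower, beside 11.3% of all genes called lower. All 10 fitted values were negative, with a median log2 fold change of -1.40 against -0.03 over all genes, and 5 members had an unadjusted p under 0.05.

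Tumor P5 set the line's spread. Nlrc5 had 52.6 CPM in C73-M10, 106 in C74-MNT and 2.52 in P5, against a Ba/Sq range of 69.7 to 320.1 (log2 fold change -1.73 ± 0.61, adjusted p = 0.0426). Tap1 had 57.2, 82.2 and 3.57 CPM, Psmb8 27.3, 43.1 and 3.08, and Psmb9 14.4, 20.8 and 1.05. P5 was the lowest of the 24 tumors for all 4 genes.

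H2-K1 had 307, 393 and 61.6 CPM in C73-M10, C74-MNT and P5, and H2-D1 457, 505 and 132. B2m had 223, 338 and 140.0, a narrower spread, in fold, than any other member. Tapbp had 132, 178 and 23.9 CPM, Tap2 33.1, 46.2 and 6.44, and Psmb10 15.6, 35.6 and 5.88. The log2 ratio of B2m to Nlrc5 was therefore 5.54 in P5 and 2.07 and 1.66 in the other tumors.

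Immune markers moved with this tumor. The 7 T cell markers summed to 0.7 CPM in P5, with 3 of them at 0, and to 28.1 and 35.4 in C73-M10 and C74-MNT. Interferon gamma targets summed to 151.6 CPM in P5, 505 and 1149 in the others, and macrophage markers to 90.7, 566 and 432. Fibroblast markers were 468 CPM in P5 against 5770 (C73-M10) and 15145 (C74-MNT). The part of these cells in the level of class I genes was not tested.

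Without P5 no member was called in BURP-16SR against Ba/Sq, and without C149-M3, the BURP-18BaSq tumor with the least B2m, 5 were (B2m, Tap1, Psmb8, Psmb9 and Nlrc5). Without BURP-18BaSq as a whole 8 members were lower, with B2m at -1.80 (adjusted p = 1.12e-04) and H2-K1 at -1.60 (adjusted p = 0.00328). Without C102-M1 and C102-M30 the count remained at 1. Without BURP-12BaSq, BURP-21BaSq, BURP-24BaSq or BURP-25BaSq no member was called, so that the count moved with which lines made up the comparison group.

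In BURP-16SR, proteasome genes Psme1 (-1.05 ± 0.36), Psme2 (-1.02 ± 0.31) and Psmb6 (-0.82 ± 0.24) were lower than in Ba/Sq tumors, 3 of 6. No loading gene was called among 6, where 2 had an unadjusted p under 0.05, and of 13 nonclassical genes H2-Q2 (-7.64) and H2-T22 (-1.77) were lower. Regulators Ezh2 (-0.91), a histone methyltransferase known to silence class I genes, and Rfx5 (-0.64), a partner of Nlrc5 on promoters, were lower. Jak2 (1.55 ± 0.19), a kinase of the interferon gamma receptor, was higher and the only one of 8 pathway genes called. No interferon gamma target of 16 was called (1 at an unadjusted p under 0.05), but 7 of 15 type I targets were lower, led by Oas3 (-2.97), Ifit1 (-2.93), Isg15 (-2.80) and Usp18 (-2.43). All 4 B cell markers were higher, with a sum of 219 CPM in C73-M10, 6.4 in C74-MNT and 1.2 in P5. Only C73-M10 was above the Ba/Sq range of 0.31 to 7.5 CPM.

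Between BURP-16SR and BURP-19NE no member was called by edgeR, none had an unadjusted p under 0.05, and DESeq2 called B2m (-0.91, adjusted p = 0.0397). The background there is 34.3% of genes called. B2m was the member whose tumors did not overlap, at 140.0 to 338 CPM in BURP-16SR and 349 to 546 in BURP-19NE (log2 fold change -0.84 ± 0.36, adjusted p = 0.109, edgeR). How many of all genes were free of overlap between these lines was not counted, so B2m cannot be said to stand out by it. Tapbp (1.38 ± 0.68, adjusted p = 0.159) and Tap2 (1.32 ± 0.65, adjusted p = 0.157) had the largest positive values. Without P5 these 2 genes were called higher in BURP-16SR, by 1.81 and 1.75, and without C74-MNT B2m was called lower, at -1.23.

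BURP-24BaSq and BURP-16SR are the lines whose growth under cisplatin the study compared, and the labels name no treatment for the tumors measured here. B2m was called, higher in BURP-24BaSq (log2 fold change 2.11 ± 0.35, adjusted p = 0.00428, edgeR), beside 17.6% of genes called higher. Its levels were 910, 1087 and 1166 CPM in BURP-24BaSq and 140.0 to 338 in BURP-16SR. In 7 members all BURP-24BaSq tumors were above all BURP-16SR tumors (H2-K1, H2-D1, B2m, Tap1, Psmb8, Psmb9 and Nlrc5), as in 28.2% of all genes tested. Among the 7, H2-K1 had 639 to 896 CPM against 61.6 to 393 (1.53 ± 0.62, adjusted p = 0.0953). Without P5 these 7 genes were called higher, with B2m at 1.91 and H2-K1 at 1.13. Without C74-MNT 2 were, B2m and Psmb8. With 1 line each, subtype, sex and donor cannot be told apart.

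The male and female Ba/Sq lines were compared because the study asks about sex. No member was called by edgeR, beside 5.46% of genes, and DESeq2 called Psmb8 (adjusted p = 0.0488). All 10 values were lower in males, with a median log2 fold change of -0.60 against 0.04 over all genes. Psmb8, Psmb9 and Psmb10 had an unadjusted p under 0.05 in edgeR.

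Psmb8 ran from 3.69 to 104 CPM (median 51.9) in the 9 male tumors and from 86.0 to 145 (median 102.2) in the 9 female tumors, with a log2 fold change of -1.05 ± 0.36 (adjusted p = 0.0919). H2-K1 had a male median of 573 and a female median of 818 CPM (-0.61 ± 0.39, adjusted p = 0.365), and B2m 604 and 814 (-0.59 ± 0.50, adjusted p = 0.517). In both genes the lowest 3 male tumors were those of BURP-18BaSq. Without that line, or without C102-M1 and C102-M30, no member was called. Without BURP-17BaSq 2 were (Tap1 and Psmb8), and without C149-M3 Psmb8 was (-0.89, adjusted p = 0.0360, edgeR). Interferon gamma targets were lower in males in 7 of 16 genes, with sums of 200.3 to 1121 CPM in males and 845 to 2677 in females. The part of these in the members' values was not tested.

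The other Ba/Sq lines had no member called against the rest of the subtype in edgeR or DESeq2. The backgrounds are 6.94% of genes in BURP-12BaSq (1 member at an unadjusted p under 0.05), 1.64% in BURP-17BaSq (1), 0.0195% in BURP-21BaSq (0), 2.6% in BURP-24BaSq (0) and 0.287% in BURP-25BaSq (0). In BURP-12BaSq that member was Tapbp (log2 fold change -0.63 ± 0.26, adjusted p = 0.142). In BURP-17BaSq the member with an unadjusted p under 0.05 was Nlrc5, at 130, 69.7 and 137 CPM in C152-M1, C165-M30 and P4 (log2 fold change -0.88 ± 0.32, adjusted p = 0.193). Its H2-D1 was meanwhile 1063, 580.2 and 1082 CPM, 2 of them the highest of all 24 tumors.

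The order of the lines put the same group at the top for each chain. By mean, H2-K1 ran from BURP-25BaSq (857 ± 51.3 CPM, SD, n = 3) over BURP-17BaSq (794), BURP-21BaSq (784) and BURP-24BaSq (771) to BURP-12BaSq (665), and then to BURP-16SR (254), BURP-19NE (220) and BURP-18BaSq (127). The one step at which every tumor of a line was above every tumor of the next was that from BURP-12BaSq to BURP-16SR. B2m had 2 such steps, from BURP-12BaSq (697) to BURP-19NE (450) and from there to BURP-16SR (234), with BURP-24BaSq (1054) first and BURP-18BaSq (79.6) last. For Tap2, Tapbp, Psmb10 and Nlrc5 no neighbours in the order were free of overlap.

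**Figure D3:**
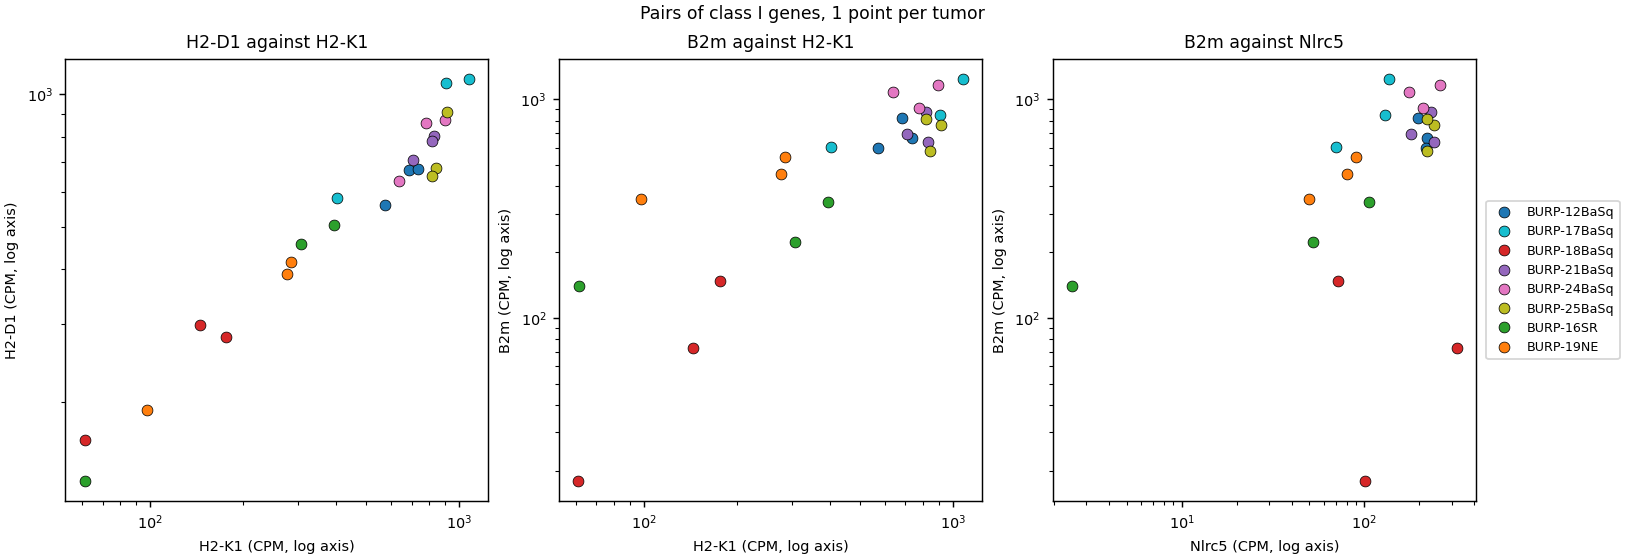
Levels of H2-D1 against H2-K1, B2m against H2-K1 and B2m against Nlrc5 (CPM, log axes), 1 point per tumor, coloured by line. H2-K1 and H2-D1 form 1 band (r = 0.983), while the BURP-18BaSq tumors lie low in B2m for their Nlrc5 level.

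Over the 24 tumors the members moved together, to unequal degrees. Pearson's r of log2 CPM over the 45 pairs ran from 0.307 to 0.984 with a median of 0.809, as a description of tumors that share lines and scaling. Psmb8 and Psmb9 (0.984), H2-K1 and H2-D1 (0.983) and Tap1 and Psmb9 (0.974) were the closest. Tap1 and Psmb9 overlap on opposite strands, and reads of the overlap cannot be told apart. B2m was the least like the rest, with 0.307 to Tapbp and 0.381 to Nlrc5.

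**Figure D4:**
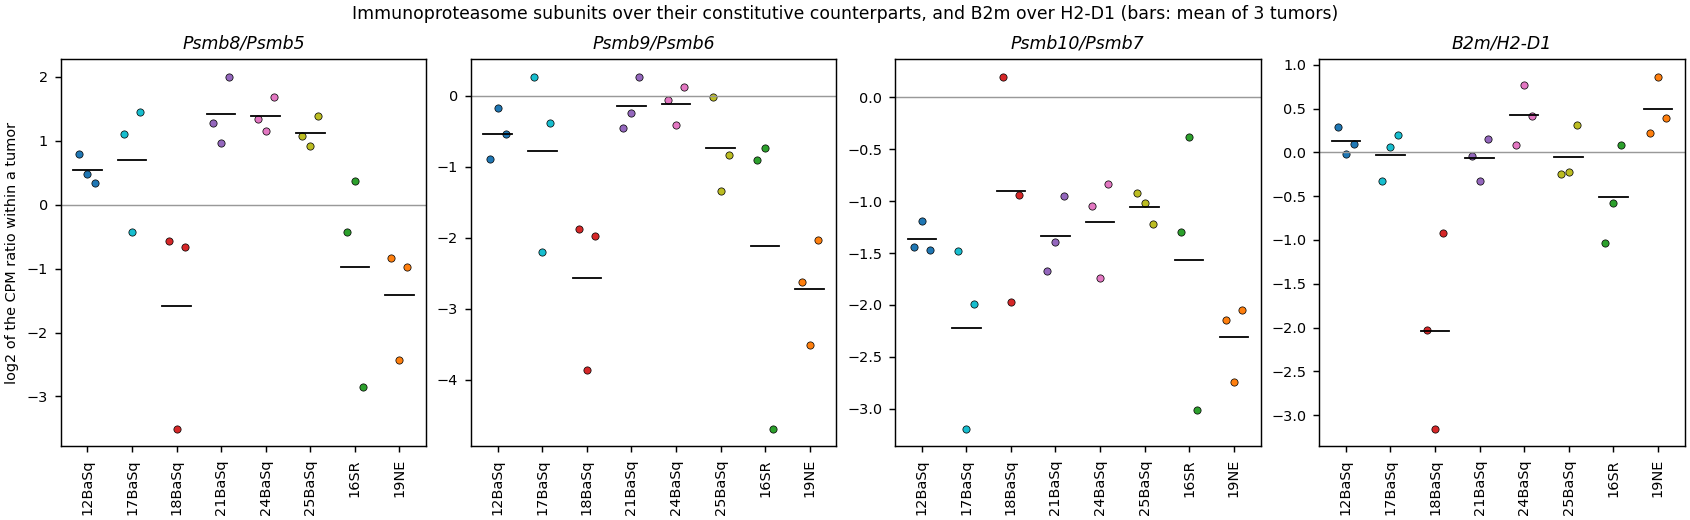
Log2 ratio of CPM within each tumor (vertical) by line, for 3 immunoproteasome subunits over their constitutive counterparts and for B2m over H2-D1, with bars at the mean of 3 tumors. Psmb8/Psmb5 is above 0 in 14 of the 15 Ba/Sq tumors outside BURP-18BaSq and below 0 in all tumors of BURP-18BaSq and BURP-19NE. Ratios are not scaled by transcript length, so 0 does not mark equal levels.

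Ratios within a tumor, not scaled by transcript length, set the induced subunits against the constitutive ones they replace. Psmb8 over Psmb5 had a mean log2 ratio of 1.04 ± 0.59 (SD, n = 15) in the Ba/Sq tumors outside BURP-18BaSq. It was -1.58 ± 1.67 (n = 3) in BURP-18BaSq, -1.41 ± 0.88 in BURP-19NE and -0.97 ± 1.68 in BURP-16SR, where C74-MNT alone was above 0, at 0.37. Psmb9 over Psmb6 was -0.46 ± 0.66 in the 15 Ba/Sq tumors and -2.57 ± 1.12, -2.72 ± 0.74 and -2.11 ± 2.24 in the same 3 lines.

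The third pair behaved otherwise in BURP-18BaSq. Psmb10 over Psmb7 was 0.20, -1.97 and -0.94 there, a mean of -0.90 ± 1.09 against -1.44 ± 0.59 in the other Ba/Sq tumors, while BURP-19NE had -2.31 ± 0.38. Psmb5 itself had 42.4 to 51.8 CPM in BURP-18BaSq and 35.8 to 63.3 in the other Ba/Sq tumors. The low Psmb8 ratios of that line thus came with the constitutive subunit in its usual range. Psmb7, in contrast, was called lower in BURP-18BaSq, as given above. Psmb10 was not called there (log2 fold change -0.15 ± 0.39, adjusted p = 0.827, edgeR). The higher mean of Psmb10 over Psmb7 therefore does not show more Psmb10.

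**Figure D5:**
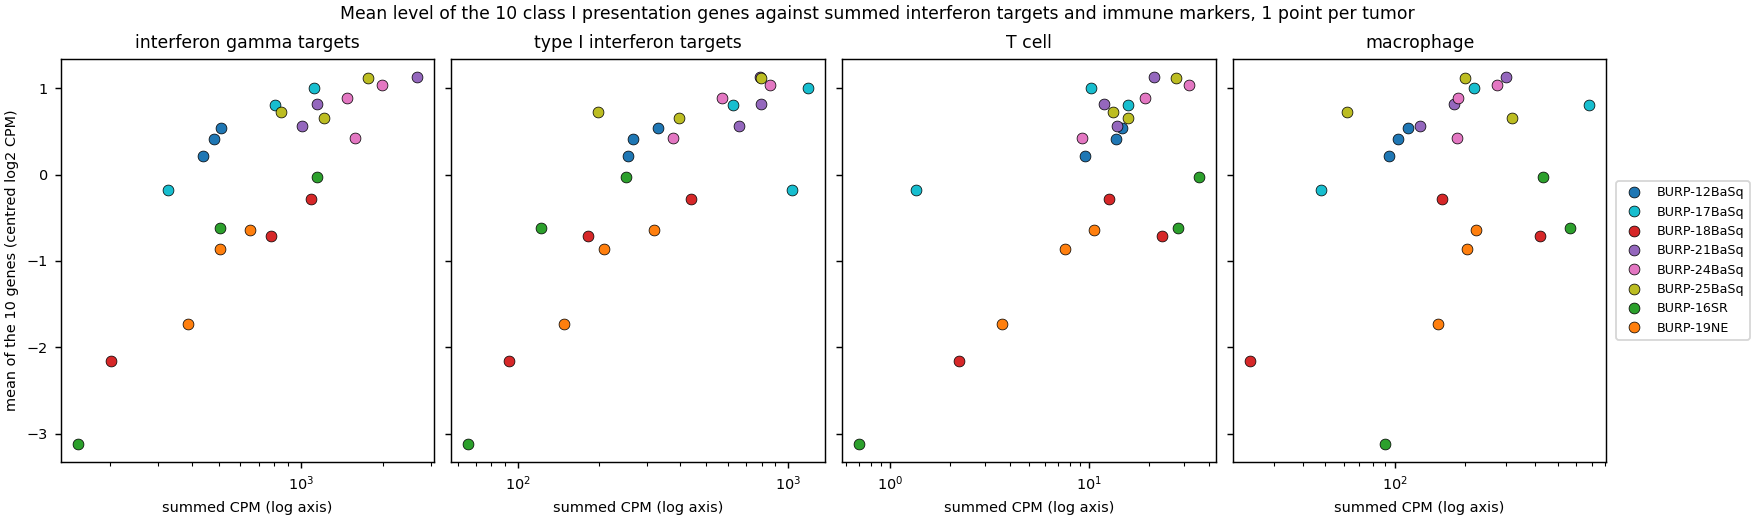
Mean centred log2 CPM of the 10 genes (vertical) against the summed CPM of interferon gamma targets, type I interferon targets, T cell markers and macrophage markers (log axes), 1 point per tumor. BURP-16SR P5 is lowest in the mean of the members (-3.12) and in both interferon sums, while BURP-18BaSq C148-M3 lies at -0.28 with a gamma target sum of 1092 CPM.

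Among the genes most like the members' mean over the 24 tumors, by Pearson's r, were Gm18301 (0.951), H2-T10 (0.942), Rbm43 (0.938), H2-Q4 (0.934), Nmi (0.933), Psme2b (0.932), Psme2 (0.928), Cxcl10 (0.922) and Gbp3 (0.922). These are descriptions over tumors that share lines. The members' mean itself ran from -3.12 in BURP-16SR P5 and -2.16 in BURP-18BaSq C149-M3 to 1.13 in BURP-21BaSq P5, on the centred log2 CPM scale.

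Summed targets and markers moved with that mean. Over 24 tumors r was 0.817 with the interferon gamma targets, 0.815 with type I targets, 0.703 with T cell, 0.632 with NK cell and 0.338 with macrophage markers, and 0.0018 with fibroblast markers. Over the 15 Ba/Sq tumors outside BURP-18BaSq, NK cell markers had 0.902, T cell markers 0.835, interferon gamma targets 0.825 and type I targets 0.329. Pan-leukocyte (0.789), dendritic cell (0.729), endothelial (0.670), macrophage (0.665) and fibroblast markers (0.484) also rose with the mean there. Epithelial (0.265), B cell (0.234) and skeletal muscle markers (-0.095) had the lowest values. The likeness was thus not particular to NK and T cell markers. Ifng itself was at most 1.27 CPM in those tumors, a level of few counts, and was at 0 in at least 1 tumor of BURP-16SR, BURP-18BaSq, BURP-19NE and the other Ba/Sq lines. Whether immune cells, interferon or the tumor cells set the members' levels was not tested.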

How the data were processed

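RNA-seq was measured in 24 tumors, 3 for each of 8 lines, grouped by the labels, with sex and subtype of the lines from the study. Per the labels and methods, the authors removed ribosomal RNA (a dUTP-stranded kit), sequenced paired ends, aligned with STAR 2.6.0a to GRCm38 (GENCODE M16) and deposited RSEM 1.3.1 expected counts per gene, not normalized, of which 12.5% of values were not whole. CASAVA 1.8.2 is also named in the submitters' processing notes. RSEM divides reads that fit several genes, which bears on H2-K1 and H2-D1. The strand setting of the counting is not given in the sources used here.

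Expected counts were rounded. Symbols came from GENCODE M21, which held 99.8% of the identifiers. Each comparison used R 4.3.3 and edgeR 4.0.16 (TMM, filterByExpr on the groups compared, glmQLFit, glmQLFTest) over all genes, with Benjamini-Hochberg adjustment over all genes tested and calls at an adjusted p under 0.05 without a limit on the fold. SE is the fold change divided by the root of the F statistic. The fit was tested on simulated counts. Levels were TMM-normalized CPM over 24 tumors, and ratios and correlations used log2(CPM + 0.5). Levels of different genes were compared per kilobase of the longest transcript. Ratios were not scaled by transcript length, so they compare tumors, and their sign does not tell which gene was more abundant. Depth ran from 9295747 to 25370356 counts, and floors cover counting error only.

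The members, gene lists and cell markers were chosen with earlier results of these data known. Named were all members, in each list up to 4 called genes with the largest fold change, the 10 genes most like the members' mean, and the constitutive subunits Psmb5, Psmb6 and Psmb7. Uncalled genes and further called genes named in the text (Psmb6, Irf1, Ptpn2, Nfyc, Ifng) were added after their values were seen. Alternatives were DESeq2 1.42.0, its size factors, a filter of 10 counts in each tumor, none at all, no ribosomal RNA genes, all 24 tumors in 1 fit, counts summed per line, and leaving out each tumor or the libraries C102-M1 and C102-M30. Leaving out each Ba/Sq line was added after seeing the data. Promoter motifs were searched with Python 3.11.15. Normal bladder was not analysed here, and 1 gene that the rule would name is not reported here.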

Additional observations from a re-analysis of the deposited data

How the results depend on the processing

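Member counts called for BURP-19NE, 8 in the edgeR fit, became 1 with counts summed per line and 2 to 9 with 1 tumor left out, the low values coming without C80-M3 (2) or C80-M1 (3). For BURP-16SR against Ba/Sq, 1 became 4 in DESeq2, 7 with all 24 tumors in 1 fit, 0 with sums per line, 0 to 5 with 1 tumor left out, 8 without line BURP-18BaSq and 0 without BURP-12BaSq, BURP-21BaSq, BURP-24BaSq or BURP-25BaSq. For BURP-16SR against BURP-19NE, 0 became 1 in DESeq2, 1 in the fit of all 24 and 0 to 2 with 1 tumor left out. For BURP-24BaSq against BURP-16SR, 1 became 5 in DESeq2, 7 in the fit of all 24 and 1 to 7 with 1 tumor left out (7 without P5). Between the sexes 0 became 1 in DESeq2, 4 in the fit of all 24, 2 without BURP-17BaSq and 0 to 1 with 1 tumor left out. For BURP-18BaSq, 6 became 0 with sums per line, and for BURP-24BaSq against other Ba/Sq lines 0 became 1 in the fit of all 24. Sums per line leave 1 value a line, and the fit of all 24 takes its spread within lines. The cause of the other changes was not tested. The other 298 counts under an alternative stayed within 1.5 times.

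Of the members' log2 fold changes, 1377 kept direction and side of the threshold under an alternative, 70 fell short of it, 59 passed it and 14 turned sign, all 14 with 1 tumor left out. For BURP-16SR against BURP-19NE the ranges with 1 tumor left out were -0.15 to 0.75 for H2-K1, -0.074 to 0.61 for H2-D1, -0.40 to 0.76 for Tap1, -0.53 to 0.66 for Psmb8, -0.29 to 0.87 for Psmb9, -0.063 to 1.17 for Psmb10 and -1.30 to 0.19 for Nlrc5. For BURP-18BaSq against other Ba/Sq lines they were -0.56 to 0.027 for Tapbp, -0.71 to 0.23 for Psmb10 and -1.18 to 0.10 for Nlrc5. Sums per line could not be tested where 1 line met 1 line or for the F tests. No paired analysis was made because the labels give each tumor only an unexplained code or what reads as a passage. Those that recur between lines (such as P4) are not said to tie tumors of different lines to one another.

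With DESeq2 size factors or without ribosomal RNA genes, which both rescale the libraries, mean levels moved by more than 1 SD in 18 of 160 cases. The 160 cases cover both settings. With 3 tumors of 1 donor in each line, differences of subtype, sex or drug response cannot be told apart from those of donors. The least of the members, Psmb9, had 15 counts in BURP-16SR P5, and depth limits that value most.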

Other observations

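Genes beside B2m on chromosome 2 were examined in BURP-18BaSq after its B2m level had been seen. Of 35 other genes tested within 1 Mb of B2m, 12 were lower, where 7.27% of all genes tested were, and 1 higher. Spg11, the neighbor on one side, had a log2 fold change of -0.25 (adjusted p = 0.212, edgeR) against the other Ba/Sq lines. On the other side Trim69 (-2.78, adjusted p = 0.0328), Sord (-2.43, adjusted p = 0.00447), Duoxa1 (-1.98, adjusted p = 0.0223) and Duox1 (-2.49, adjusted p = 0.0211) were lower. Between Sord and Duoxa1, Duox2 (-0.29, adjusted p = 0.875) and Duoxa2 (-1.05, adjusted p = 0.576, edgeR) were not called. Shf, Slc28a2 and Gatm, which follow Duox1, were not called either. Trim69 had means of 0.057 CPM in BURP-18BaSq and 0.408 in the others, at the level of few counts. Ctdspl2 (-0.93, adjusted p = 6.69e-04) and Eif3j1 (-0.77, adjusted p = 0.00929) were lower by less than B2m, while Sqor (-0.01) and Bloc1s6 (-0.05) were near 0.

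Tumor C165-M30 of BURP-17BaSq combined few immune markers with high type I interferon targets. Its T cell markers summed to 1.3 CPM, with 2 of 7 at 0, and its type I interferon targets to 1039 CPM, above 22 of the other 23 tumors. Its interferon gamma targets summed to 326 CPM, and it was the lowest of its line in all 10 members, with H2-K1 at 401 CPM against 905 and 1075.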
